A study of Rattus norvegicus with 17 samples.

Results

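The livers of 24-day-old male rats were compared by the choline content of their mothers' diet during lactation, and the average effect of a deficient lactation diet was estimated for each gene as the mean of 2 differences: ND minus NN, among pups whose mothers had adequate choline in pregnancy, and DD minus DN, among pups whose mothers were deficient in pregnancy. The first letter of a group name gives the pregnancy diet and the second the lactation diet, with D for deficient and N for adequate choline. All 17 arrays of the study entered, 8 from pups of mothers deficient during lactation (4 ND and 4 DD) and 9 from pups of mothers with adequate choline during lactation (4 NN and 5 DN). A lactation effect was described as shared where both differences had the same sign, which was so for 4081 of the 12912 genes tested. All animals were Wistar rats, all mothers had first been given a choline-deficient AIN-93 M diet for 16 weeks to induce fatty liver and were mated with healthy males, and the adequate diet was AIN-93 G. Each array held liver RNA of 1 pup from its own litter, so the replicates were separate litters. No group of pups from mothers with healthy livers is among these arrays, so the comparisons are among pups of mothers that all had fatty liver.

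Choline is needed for phosphatidylcholine, the main phospholipid of membranes and of the lipoprotein particles in which the liver exports fat. It is also oxidised in liver mitochondria to betaine, whose methyl group remakes methionine from homocysteine and so feeds the methyl donor S-adenosylmethionine. Where choline is short, the liver can make phosphatidylcholine by methylating phosphatidylethanolamine, export of fat in very low density lipoprotein slows, and fat accumulates. Suckling pups take choline from milk, which makes the mother's lactation diet a separate supply from the one across the placenta.

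The values are relative array signals on the log2 scale, for which the number of arrays limits the precision. Albumin (Alb, 11.69), transferrin (Tf, 11.46) and transthyretin (Ttr, 11.16), secretory products of hepatocytes, ranked 1, 3 and 4 by mean signal, and their average lactation differences lay between -0.02 and 0.06. A free-text field of each sample names the LnCap prostate cell line, whereas the tissue labels name liver and the prostate gene Pbsn had a mean of 1.58 and did not pass the filter on dim genes. Array medians lay between 2.50 and 2.71. The median standard error of an average lactation effect was 0.119, smaller than the 0.173 of ND minus NN and the 0.164 of DD minus DN. In bulk liver, fewer cells of a type and less RNA per cell cannot be told apart.

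No gene passed the test for an average lactation effect. Of 12912 genes 0 were called (0% called, limma with Benjamini-Hochberg adjustment, smallest adjusted p = 0.998), and 407 (3.15%) were at unadjusted p under 0.05, of which 207 (1.6%) were higher after a deficient lactation diet and 200 (1.55%) lower. The average difference exceeded 1 log2 unit in size for 1 gene, the metallothionein gene Mt2A, and 0.5 for 63 genes. Every average lactation effect of a single gene given below therefore did not pass the test, with an adjusted p of at least 0.998. For comparison, the average pregnancy effect, estimated from the same arrays, also had 0 genes called and 367 (2.84%) at unadjusted p under 0.05.

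The effects of the lactation diet after the 2 pregnancy diets mostly ran in opposite directions. Same signs were found for 4081 genes (31.6%), 2039 higher (15.8%) and 2042 lower (15.8%), and opposite signs for 8831. Across the 12912 genes the 2 differences, which share no array but were normalised together, had a Pearson correlation of -0.518 and a Spearman correlation of -0.494, given as a description since genes are not independent. The SD across genes was 0.317 for DD minus DN and 0.221 for ND minus NN, and 0.138 for their mean, so that much of each difference cancelled in the average. Of the 407 genes with unadjusted p under 0.05, 337 had the same sign in both comparisons (2.61% of genes tested), 176 higher (1.36%) and 161 lower (1.25%).

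**Figure D1:**
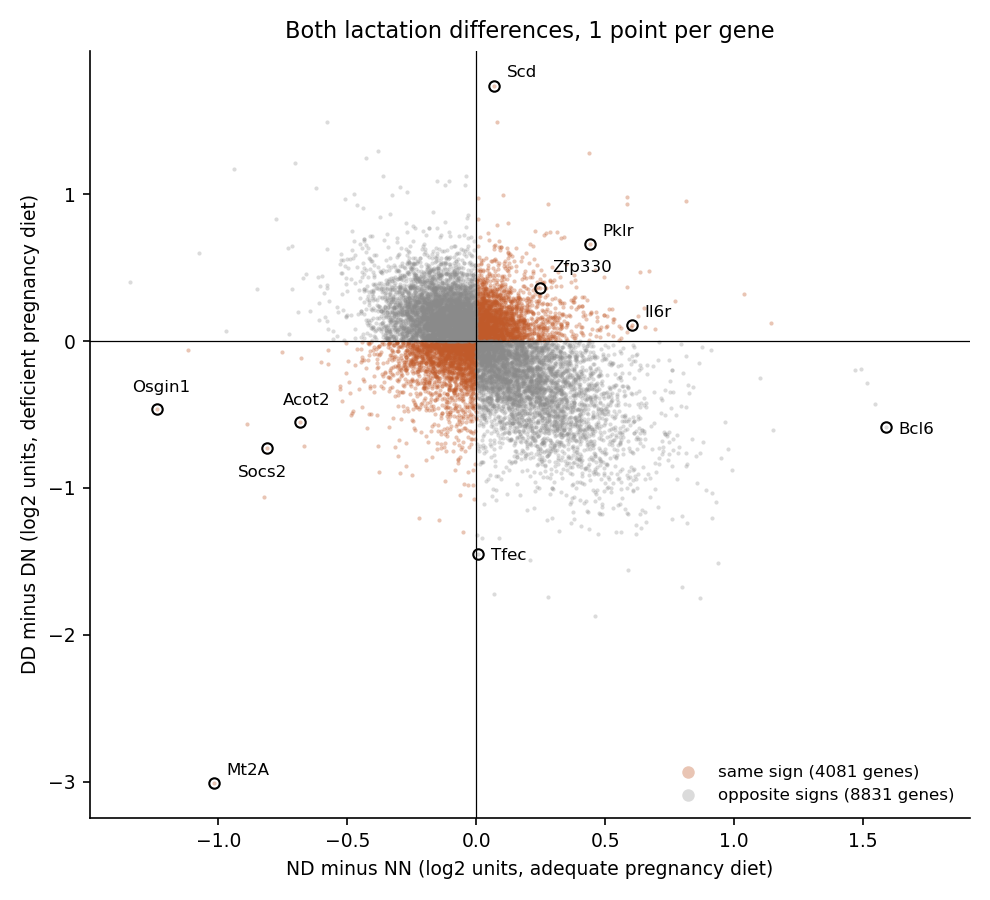
Each point is 1 of 12912 genes, with ND minus NN on the horizontal axis and DD minus DN on the vertical axis, both in log2 units; orange genes have the same sign in both comparisons (4081) and grey genes opposite signs (8831). The cloud leans towards the quadrants of opposite sign, and Mt2A stands alone at -1.02 and -3.01.

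Zfp330, a zinc finger protein gene, was the only gene whose 8 deficient-lactation livers all lay above all 9 adequate-lactation livers (0.00774% of genes tested), and 0 genes lay wholly below. This separation is a description only, and how many of the 12912 genes would show it by chance was not estimated. Its signal was 3.98, 4.31, 4.00 and 4.03 in ND livers, against 3.77, 3.76, 3.94 and 3.86 in NN livers. The DD livers had 3.95, 4.15, 4.17 and 4.20, against 3.69, 3.49, 3.92, 3.77 and 3.94 in DN livers. The groups are separated by a narrow margin, the lowest deficient value and the highest adequate value being 3.95 and 3.94, and the average difference was 0.30 ± 0.0834 (SE), a 1.23-fold higher signal.

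Among the same-sign genes with higher average signal, the smallest p belonged to Akap17a, which encodes a splicing regulator that anchors protein kinase A. Its difference was 0.31 ± 0.0748 (unadjusted p = 0.000545), made up of 0.15 in ND minus NN and 0.48 in DD minus DN. All 4 DD livers (4.70 to 4.93) exceeded all 5 DN livers (4.27 to 4.47), whereas the ND livers (4.57 to 4.81) overlapped the NN livers (4.32 to 4.69). Cbx8, a Polycomb subunit (0.49 ± 0.121), Zfp494l1 (0.44 ± 0.122), Lipt2, an enzyme of protein lipoylation (0.33 ± 0.0948), and Hgh1, a chaperone for elongation factor 2 known from yeast (0.34 ± 0.112), likewise had their larger difference after deficient pregnancy, at 0.75, 0.79, 0.48 and 0.57. Full separation of the livers within 1 comparison, given here and below for single genes, is a description only. Its share over all genes was not counted.

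Il6r, the receptor chain through which hepatocytes sense interleukin-6, showed the other arrangement. Its signal was 7.08, 7.20, 7.05 and 6.92 in ND livers, against 6.32, 6.45, 6.36 and 6.70 in NN livers. In DD livers it was 6.91, 7.03, 6.24 and 6.93, against 6.68, 6.68, 6.59, 6.63 and 6.75 in DN livers. Every ND liver lay above every NN liver (difference 0.60 ± 0.149), and 3 of 4 DD livers lay above all DN livers while the other, at 6.24, was the lowest of all 17 arrays. The average difference was 0.36 ± 0.103, a 1.28-fold higher signal (unadjusted p = 0.0028), and the interaction of -0.49 ± 0.206 did not pass (limma adjusted p = 0.202).

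Arl3, a small GTPase of ciliary transport (0.36 ± 0.106), and Prickle1, a planar cell polarity gene (0.30 ± 0.0919), also separated ND from NN livers with differences of 0.43 and 0.50, against 0.28 and 0.09 for DD minus DN. The remaining genes of this kind were dim, with a mean under the median of all values (2.58): the olfactory receptor gene Or1j13b (0.51 ± 0.132), the cytokine receptor gene Flt3 (0.33 ± 0.102) and the glycoprotein hormone subunit gene Gphb5 (0.39 ± 0.127).

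Mt2A, a metallothionein that binds zinc and copper, had the largest average difference of any gene tested. Its signal was 4.27, 6.87, 4.32 and 4.57 in ND livers, against 5.00, 8.09, 5.49 and 5.51 in NN livers. DD values were 3.57, 5.21, 2.68 and 2.12, against 5.42, 7.92, 6.57, 7.43 and 4.69 in DN livers. The animal numbered 2 was the highest in each of the 4 groups, and the ranges overlapped in both comparisons. Of the 8 deficient-lactation livers 6 lay below all 9 adequate-lactation livers. The average difference of -2.01 ± 0.564 corresponds to a 4.04-fold lower signal (unadjusted p = 0.00223) and is the mean of -1.02 ± 0.818 and -3.01 ± 0.776. Mt1f, another metallothionein gene, which was chosen after its values were seen, had an average difference of -0.83 ± 0.449 with opposite signs, 0.07 in ND minus NN and -1.72 in DD minus DN. Metallothionein genes are near-identical in sequence, so signal may be shared between their probe sets.

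Metallothionein genes are known targets of the metal-sensing transcription factor MTF1, which binds metal response elements with the core TGCACNC or TGCGCNC. The RefSeq promoter of Mt2A (GRCr8, chr19:10838709-10838958, minus strand, the 250 bases before the transcription start) is shown because it belongs to the gene with the largest difference, with matches to these letters on either strand in capitals.
Mt2A: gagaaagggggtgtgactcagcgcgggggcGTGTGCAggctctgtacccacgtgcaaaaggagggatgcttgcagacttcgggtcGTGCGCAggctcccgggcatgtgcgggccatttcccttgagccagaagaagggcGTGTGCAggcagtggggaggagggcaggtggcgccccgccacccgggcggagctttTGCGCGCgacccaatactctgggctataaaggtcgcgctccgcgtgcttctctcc
It holds 4 matches, whose first bases lie at -220, -165, -111 and -55 relative to the start. Of 27457 RefSeq promoter windows of the same length, 21.2% hold at least 1 match, 5.13% at least 2 and 1.25% at least 3. A match of letters is a description of the sequence and was not measured as a binding site in these livers.

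Ribosomal protein genes appeared among the lower genes. Rpl36l2, whose product resembles a protein of the large ribosomal subunit, had a signal of 5.82, 6.36, 5.96 and 6.47 in ND livers, against 6.73, 6.95, 6.46 and 6.40 in NN livers. Values of DD livers were 6.63, 6.52, 6.41 and 6.13, against 7.09, 7.20, 7.07, 6.74 and 6.55 in DN livers. The 2 differences were almost equal, -0.48 ± 0.182 and -0.50 ± 0.173, with an average of -0.49 ± 0.126 (unadjusted p = 0.00104), and all 8 deficient-lactation values lay below the median of the adequate ones, although the ranges overlapped. Rpl36 itself had an average difference of -0.39 ± 0.127 and Rpl12a-ps1, named as a pseudogene, -0.37 ± 0.111. Ribosomal protein genes and their copies share sequence, so these 3 may not be independent. Over the 25 tested ribosomal proteins of the gene list the median difference was -0.0031, with 4 higher and 5 lower in both comparisons.

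Ifitm3, an interferon-induced membrane protein that restricts viruses, had an average difference of -0.60 ± 0.192, from -0.30 in ND minus NN and -0.89 in DD minus DN. Its 8 deficient-lactation values (4.00 to 5.48, median 4.93) all lay below the adequate-lactation median of 5.49 and overlapped the adequate range of 4.89 to 6.17. The 24 tested interferon response genes had a median of 0.02, 4 higher and 5 lower in both comparisons. Emg1, a methyltransferase of ribosomal RNA maturation (-0.38 ± 0.112), Ubqln2, which carries ubiquitinated proteins to the proteasome (-0.33 ± 0.0982), and Rxrg, a retinoid X receptor (-0.26 ± 0.0816), were lower in all 4 DD than in all 5 DN livers. Hcn2, a pacemaker channel (-0.37 ± 0.116), and Nckipsd, an adaptor of actin signalling (-0.32 ± 0.102), were lower in all ND than in all NN livers. Tnfrsf11a, the receptor for RANK ligand, had nearly equal differences of -0.30 and -0.34.

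**Figure D2:**
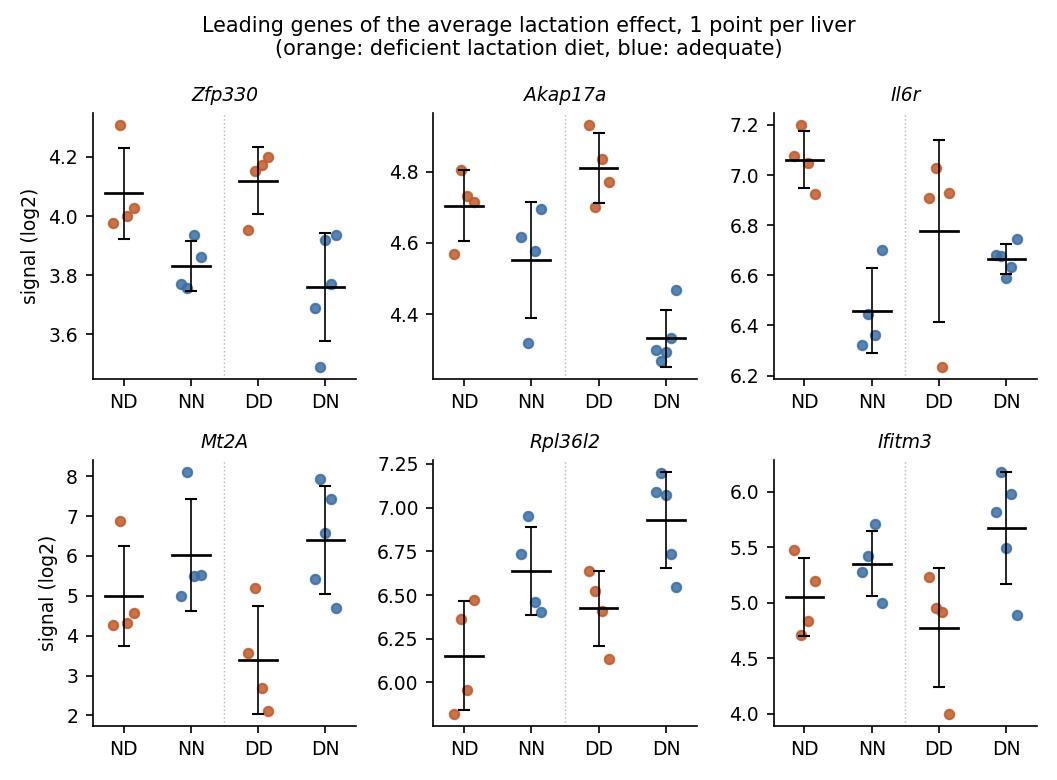
Array signal (log2) of 6 leading genes, 1 point per liver, in ND, NN, DD and DN livers, with the mean (bar) and SD (whiskers) of each group and a separate vertical scale for each gene. Zfp330 separates the orange deficient-lactation livers from the blue adequate-lactation ones, Akap17a does so only between DD and DN and Il6r only between ND and NN, while Mt2A, Rpl36l2 and Ifitm3 overlap.

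Choline and methyl group metabolism came first among the gene lists, since choline is what the diet lacked. The 16 tested genes of choline oxidation and the methionine cycle had a median average difference of 0.04, against -0.0033 over all genes; the median was 0.27 in ND minus NN, where 13 of 16 genes were positive, and -0.02 in DD minus DN, where 9 of 16 were negative. Of the 16 genes 4 were higher in both comparisons, 0 lower in both, and 0 reached an unadjusted p under 0.05. Bhmt, which uses betaine to remake methionine, had a signal of 10.12, 9.89, 10.15 and 9.45 in ND livers, against 9.61, 9.14, 9.59 and 9.21 in NN livers. Among DD livers the values were 10.06, 9.89, 8.76 and 9.73, against 10.08, 9.17, 8.83, 9.14 and 9.71 in DN livers. Of the deficient-lactation livers 7 of 8 lay above the adequate median, the exception being a DD liver that was the lowest of all, and the average difference was 0.37 ± 0.193. Gnmt, which consumes excess S-adenosylmethionine by methylating glycine, had a similar value with a larger error (0.32 ± 0.256).

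The other core enzymes differed by less than their standard errors or in opposite directions. Chdh, the first enzyme of choline oxidation, had an average difference of 0.03 ± 0.193, and Mat1a, the adult liver enzyme that makes S-adenosylmethionine, -0.04 ± 0.0987. Mat2a, the form of that enzyme found outside adult liver, had an average of 0.19 ± 0.135 made of -0.35 in ND minus NN and 0.73 in DD minus DN, where all 4 DD livers (6.34 to 6.999) exceeded all 5 DN livers (5.69 to 6.23). For its interaction of 1.07 ± 0.271 the limma adjusted p was 0.114.

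For phosphatidylcholine synthesis and choline uptake, 19 genes were tested, with a median of -0.03, 4 higher and 5 lower in both comparisons and 0 at unadjusted p under 0.05. Pemt, which methylates phosphatidylethanolamine, had an average of 0.00 ± 0.133 from -0.14 in ND minus NN and 0.14 in DD minus DN, and Pcyt1a, the rate-limiting enzyme of the other route, 0.09 ± 0.109. Etnk1, an ethanolamine kinase (-0.21 ± 0.102), and Slc44a3, of the choline transporter-like family (0.15 ± 0.0791), had the smallest p of the list, with Slc44a3 among the dim genes. Etnk1 had opposite signs, 0.09 in ND minus NN and -0.51 in DD minus DN, whereas Slc44a3 was higher in both (0.24 and 0.06). Chka and Slc44a1, a choline kinase and a choline transporter, were not analysed here. Among 18 genes of serine synthesis and folate metabolism, the 1 at unadjusted p under 0.05 was Psph, the last enzyme of serine synthesis, at -0.41 ± 0.141: its ND livers (3.34 to 4.29) lay below all NN livers (4.39 to 4.66), while DD livers (3.28 to 3.88) overlapped DN livers (3.29 to 4.08). Fpgs, which retains folate in cells, had an average of 0.34 ± 0.164, and Slc46a1, a folate transporter, -0.33 ± 0.181.

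Lipogenesis and glycolytic supply was a list with same-sign genes mostly in 1 direction: of 17 genes 7 were higher and 2 lower in both comparisons (15.8% of all genes each way), the median was 0.12 (0.0173 to 0.219 with 1 array left out, the lowest without NN 3 and the highest without DN 5), and an unadjusted p under 0.05 was reached by 2 genes, both higher. Pklr, the liver pyruvate kinase that feeds glucose carbon into fat synthesis, had a signal of 8.50, 8.23, 8.57 and 9.47 in ND livers, against 8.25, 8.39, 7.74 and 8.62 in NN livers. The signal in DD livers was 8.89, 9.08, 8.37 and 8.39, against 8.39, 7.55, 8.03, 7.71 and 8.43 in DN livers. Ranges overlapped in both comparisons, 7 of 8 deficient-lactation livers lay above the adequate median, and the average was 0.55 ± 0.185, a 1.46-fold higher signal (unadjusted p = 0.0081), from 0.44 and 0.66.

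Scd, the stearoyl-CoA desaturase that makes monounsaturated fatty acids, had the largest higher value of the list, 0.90 ± 0.332, or 1.87-fold, and nearly all of it came from 1 comparison. Its signal in DD livers was 10.39, 10.10, 9.73 and 9.84, above every one of the DN livers at 8.37, 7.60, 9.56, 6.50 and 9.34. ND livers, at 9.41, 9.23, 8.66 and 9.82, overlapped NN livers at 9.58, 8.60, 9.21 and 9.46. The differences were 1.74 ± 0.457 and 0.07 ± 0.481, and the interaction of 1.67 ± 0.664 did not pass (limma adjusted p = 0.187). Acly, which makes cytosolic acetyl-CoA from citrate (0.46 ± 0.229), and Tkfc, of fructose metabolism (0.30 ± 0.155), had the same sign in both comparisons, again with the larger part after deficient pregnancy (0.80 and 0.52, against 0.12 and 0.08).

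Cholesterol synthesis genes stood the other way. Of 17 genes 0 were higher and 6 lower in both comparisons, and the median of -0.18 was the lowest of the 35 lists; the 2 parts were unequal, with a median of 0.03 in ND minus NN and -0.43 in DD minus DN, where 16 of 17 genes were negative. Srebf2, the transcription factor that controls the pathway, was the 1 gene at unadjusted p under 0.05, with -0.38 ± 0.171 from -0.14 and -0.61. Idi1, isopentenyl diphosphate isomerase (-0.67 ± 0.390), Sqle, squalene epoxidase (-0.56 ± 0.321), and Fdps, farnesyl diphosphate synthase (-0.33 ± 0.177), had wide errors, and Idi1 spanned 4.27 to 7.04 over the 8 deficient-lactation livers and 5.09 to 7.32 over the 9 adequate ones.

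Fatty acid oxidation and PPARA target genes numbered 40, with a median of -0.09 from opposite parts: 0.10 in ND minus NN, where 26 were positive, and -0.30 in DD minus DN, where 31 were negative. There were 6 higher and 11 lower in both comparisons, and 0 higher and 2 lower at unadjusted p under 0.05. Acot2, a mitochondrial thioesterase that frees fatty acids from coenzyme A, had a signal of 4.19, 3.41, 3.41 and 4.24 in ND livers, against 4.31, 4.89, 4.02 and 4.75 in NN livers. DD livers had 3.73, 4.55, 3.52 and 3.56, against 4.47, 4.92, 3.83, 4.70 and 4.02 in DN livers. Its differences were alike after either pregnancy diet, -0.68 ± 0.288 and -0.55 ± 0.273, and 5 of 8 deficient-lactation livers lay below every adequate one; the average was -0.62 ± 0.198, a 1.53-fold lower signal (unadjusted p = 0.00618). Eci1, an isomerase for unsaturated fatty acids in mitochondria, had -0.43 ± 0.170 with all 8 deficient-lactation values below the adequate median of 7.28. Pdk4, which spares glucose during fat oxidation, had -0.71 ± 0.348, mostly from DD minus DN (-1.21), and Acaa1a, a peroxisomal thiolase, 0.31 ± 0.149 with opposite signs.

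Lipid droplet and lipoprotein export genes had a median of -0.03 over 23 genes, 4 higher and 4 lower in both comparisons. Apoa4, an apolipoprotein of triglyceride-rich particles, was higher by 0.53 ± 0.206 on average (0.31 and 0.74), and Lipc, hepatic lipase, had -0.30 ± 0.127 with opposite signs, its 4 DD livers (7.21 to 7.74) lying below its 5 DN livers (7.76 to 8.55). These were the list's 2 genes at unadjusted p under 0.05.

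**Figure D3:**
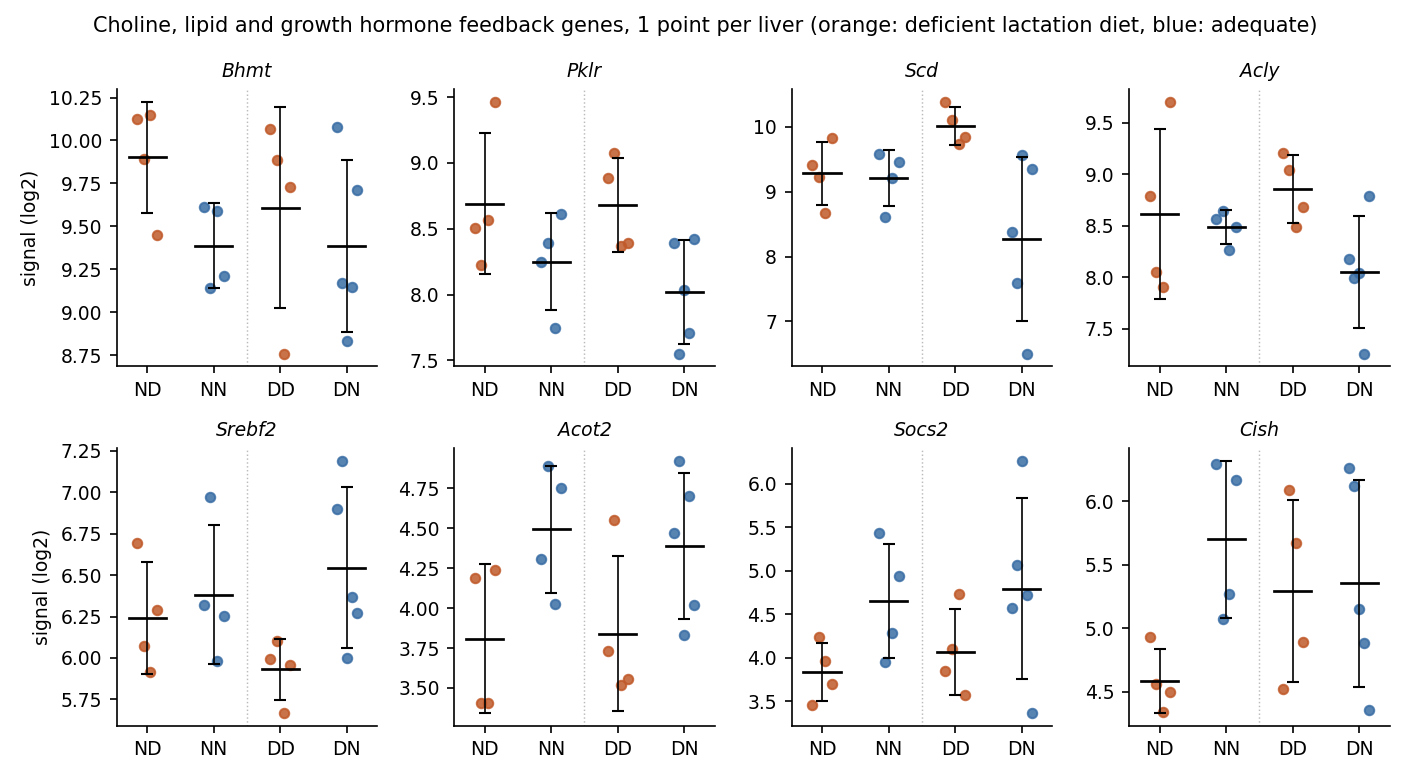
Array signal (log2) of 8 genes of choline and lipid metabolism and of growth hormone feedback, 1 point per liver, in ND, NN, DD and DN livers, with group mean (bar) and SD (whiskers) and a separate vertical scale for each gene. Pklr and Acot2 differ in the same direction after either pregnancy diet (0.44 and 0.66 for Pklr, -0.68 and -0.55 for Acot2), Scd differs mainly between DD and DN (1.74) and Cish mainly between ND and NN (-1.12).

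Growth hormone signals in liver through STAT5, which switches on its own inhibitors Socs2 and Cish. Of 22 tested genes of this axis and of male-specific liver expression, 0 were higher and 6 lower in both comparisons, with a median of -0.05 and 0 higher and 2 lower at unadjusted p under 0.05; these 2 were Socs2 and Cish, which the list of interleukin-6 signalling also holds. Socs2 had a signal of 3.46, 4.24, 3.96 and 3.71 in ND livers, against 5.43, 3.96, 4.29 and 4.94 in NN livers. Its DD values were 3.85, 4.11, 4.74 and 3.58, against 4.57, 5.06, 6.26, 4.72 and 3.37 in DN livers. The differences of -0.81 ± 0.444 and -0.73 ± 0.421 were alike and averaged -0.77 ± 0.306, a 1.71-fold lower signal, and the ranges overlapped in both comparisons, with 1 DN liver, at 3.37, the lowest of all.

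Cish had a signal of 4.93, 4.56, 4.34 and 4.50 in ND livers, all below the NN livers at 6.29, 5.07, 5.27 and 6.17. Its DD livers were at 4.52, 6.09, 5.67 and 4.89, within the DN values of 6.26, 6.12, 5.15, 4.88 and 4.36. The average of -0.59 ± 0.279 thus came from ND minus NN, at -1.12 ± 0.405, and not from DD minus DN, at -0.06 ± 0.384, although the test of their difference did not pass (interaction 1.06 ± 0.559, limma adjusted p = 0.295). Onecut1, a hepatocyte transcription factor (-0.73 ± 0.431), had the same sign in both comparisons with a wide error. Bcl6, a repressor that opposes STAT5, had opposite signs, 1.59 ± 0.414 and -0.59 ± 0.393. Cyp2c11, the male-specific cytochrome P450, had 0.65 ± 0.389 with opposite signs, 1.49 in ND minus NN and -0.19 in DD minus DN. For Cyp2c11, 1 ND liver at 6.79 exceeded the other 16 arrays (2.44 to 5.01).

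The RefSeq promoter of Cish (GRCr8, chr8:116850719-116850968, plus strand, the 250 bases before the transcription start) is shown since Cish is a textbook STAT5 target, with matches to the STAT5 letters TTCNNNGAA in capitals.
Cish: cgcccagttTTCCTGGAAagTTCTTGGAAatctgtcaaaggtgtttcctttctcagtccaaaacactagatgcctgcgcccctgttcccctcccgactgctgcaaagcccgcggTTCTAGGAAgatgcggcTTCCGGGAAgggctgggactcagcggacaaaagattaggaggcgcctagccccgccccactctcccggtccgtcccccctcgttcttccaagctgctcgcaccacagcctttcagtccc
The first bases of its 4 matches lie at -241, -230, -136 and -119 relative to the start. At least 1 match is held by 7.52% of the 27457 promoter windows, at least 2 by 0.375% and at least 3 by 0.0255%. Binding of STAT5 was not measured here.

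Interleukin-6 and oncostatin M signalling, with 25 tested genes, had a median of -0.06, 2 higher and 4 lower in both comparisons. Its higher genes at unadjusted p under 0.05 were Il6r and Osm, a cytokine of the family, whose 0.32 ± 0.108 came from DD minus DN (0.74 ± 0.148, with DD livers at 3.53 to 4.22 and DN livers at 3.04 to 3.29) and had the opposite sign in ND minus NN (-0.10). The 24 acute phase plasma proteins, which this pathway controls, had a median of -0.03 with 5 higher and 4 lower in both comparisons. Orm1, encoding the acute phase protein orosomucoid, had 0.55 ± 0.215 (0.64 and 0.47), and Serpina3n, a protease inhibitor, -0.26 ± 0.0999, nearly all of it in DD minus DN (-0.51, against -0.01).

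Of the 37 cell cycle and replication genes 18 were lower and 2 higher in both comparisons, the median was -0.08 (-0.116 to -0.0165 with 1 array left out, the value nearest 0 without DN 4), and the 1 gene at unadjusted p under 0.05 was Mcm4, a subunit of the replicative helicase. Mcm4 had a signal of 3.69 to 4.59 in ND livers, against 4.06 to 4.63 in NN livers. DD livers ranged from 3.38 to 4.48, against 4.07 to 5.38 in DN livers. The average was -0.48 ± 0.191, and 5 of 8 deficient-lactation livers lay below every adequate one. Ccna2, cyclin A2 (-0.27 ± 0.129), Aurkb, a mitotic kinase (-0.26 ± 0.133), and Prc1, of the mitotic spindle (-0.34 ± 0.186), had the same sign in both comparisons. The median of the list was -0.01 in ND minus NN, where 19 of 37 genes were negative, and -0.18 in DD minus DN, where 34 of 37 genes were negative, and 10 of the 37 genes were dim.

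Extracellular matrix and stellate cell genes had unlike parts, with a median of 0.16 in ND minus NN, where 34 of 38 genes were positive, and -0.01 in DD minus DN, where 18 of 38 were positive. Both comparisons were higher for 16 genes and lower for 2, the average median was 0.06 (0.0206 without DD 2), and 5 genes, all higher, reached an unadjusted p under 0.05. Col4a1, a basement membrane collagen, had 0.49 ± 0.183 (0.26 and 0.72), Tagln, a protein of contractile cells, 0.37 ± 0.154 (0.53 and 0.22), Col6a1, a microfibrillar collagen, 0.32 ± 0.146 (0.37 and 0.27), and Mmp2, a gelatinase, 0.28 ± 0.128 (0.47 and 0.08). The fifth was Col4a2, the partner chain of Col4a1, with 0.18 ± 0.0843 (0.12 and 0.23), named after its values were seen. All 8 deficient-lactation livers lay above the adequate median for Tagln (4.47) and for Mmp2 (4.59), but the ranges overlapped for each of these 5 genes. Of 5 measured stellate cell markers 4 had positive differences. Col1a1 and Col3a1, the fibrillar collagens, had 0.38 and 0.35, and Des, desmin, 0.03, each with the same sign in both comparisons. Dcn had 0.26 and Reln, the only negative marker, -0.15, each with opposite signs in the 2 comparisons. The mean level of these 5 markers in a liver was 5.00 to 5.30 in ND and 4.79 to 4.94 in NN livers, and 4.88 to 5.50 in DD and 4.89 to 5.33 in DN livers, and the part of stellate cells in the result was not tested.

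Kupffer cell and macrophage genes, 32 in number, had a median of -0.07, with 5 higher and 6 lower in both comparisons; at unadjusted p under 0.05 were 0 higher and 3 lower genes. None of the last 3 had the same sign in both comparisons. Tfec, which encodes a MiT-family transcription factor of macrophages, had the smallest p of all 12912 genes for the average effect (-0.72 ± 0.158, unadjusted p = 0.000259), yet its ND minus NN difference was 0.01 and the whole came from DD minus DN, which gives it a place just outside the same-sign genes. Its signal was 2.35, 2.52, 2.39 and 2.67 in DD livers, all below the DN livers at 3.78, 3.61, 4.20, 4.42 and 3.64, while ND livers (2.70 to 3.82) overlapped NN livers (2.74 to 3.57). Ccl6, a chemokine (-0.47 ± 0.136), and Vsig4, a complement receptor of resident macrophages (-0.65 ± 0.253), had the same arrangement, with -1.02 and -1.47 in DD minus DN against 0.08 and 0.16 in ND minus NN.

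Siglec1, another macrophage receptor, was lower in both comparisons (-0.18 and -0.42, average -0.30 ± 0.148). Of the 5 measured defining markers of Kupffer cells, Clec4f averaged 6.22, Marco 6.08, Csf1r 4.53 and the dim Timd4 2.51 in deficient-lactation livers, against Clec4f at 6.003, Marco at 5.93, Csf1r at 4.82 and Timd4 at 2.54 in adequate-lactation livers; with Vsig4, 2 of the 5 had a positive difference. Their mean level in a liver was 4.40 to 5.28 in ND, 4.72 to 5.16 in NN, 4.52 to 4.58 in DD and 4.43 to 5.28 in DN livers. The part of Kupffer cell number in the lower genes was not tested.

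NRF2 targets and glutathione genes had a median of -0.10 over 18 genes, with 3 higher and 7 lower in both comparisons and 0 higher and 3 lower at unadjusted p under 0.05, namely Mt2A, Osgin1 and Gclc. Osgin1, an oxidative stress-induced growth inhibitor, was lower by 0.85 ± 0.321 on average, with ND livers at 6.02, 5.15, 5.16 and 5.87 below NN livers at 6.91, 7.45, 6.04 and 6.74. Its DD livers, at 5.43, 6.52, 5.90 and 5.08, overlapped DN livers at 6.50, 7.29, 5.20, 7.05 and 4.93. Every deficient-lactation liver lay below the adequate median of 6.74. Gclc, the catalytic subunit of the rate-limiting enzyme of glutathione synthesis, had -0.52 ± 0.246, and Gss, the following enzyme, 0.26 ± 0.152, each with the same sign in both comparisons.

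The 27 genes of the urea cycle and amino acid catabolism had a median of 0.12, the highest of the 35 lists, from 0.20 in ND minus NN and -0.04 in DD minus DN, with 9 higher and 2 lower in both comparisons, among them Acmsd, of tryptophan breakdown (0.36 ± 0.129), and Ass1, argininosuccinate synthase (0.34 ± 0.169). The 44 mitochondrial respiratory chain genes had a median of 0.07 with 13 higher and 4 lower. Gluconeogenesis and insulin signalling genes had a median of 0.01 over 22 genes, with Irs2, the insulin receptor substrate, at -0.51 ± 0.218 (-0.42 and -0.59). Among 12 circadian clock genes the median was 0.0036, and Nfil3 (-0.26 ± 0.112) and Noct (0.30 ± 0.137), a clock-linked repressor and a clock-regulated phosphatase, had opposite directions to each other and the same sign in both comparisons. Stress response genes of the endoplasmic reticulum had a median of 0.03 over 28 genes, with Ddit4, an inhibitor of mTORC1, at 0.32 ± 0.117 and Slc7a5, an amino acid transporter, at -0.29 ± 0.136.

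Xenobiotic metabolism had medians near 0 on average that hid opposite parts. The 28 cytochrome P450 genes had a median of -0.05, from 0.21 in ND minus NN, where 22 were positive, and -0.27 in DD minus DN, where 22 were negative, with Cyp3a9 (-0.24 ± 0.0900, dim) the 1 gene at unadjusted p under 0.05. The 21 conjugation enzymes and flavin monooxygenases had a median of -0.02, from 0.23 and -0.20. Ugt2b10, a glucuronosyltransferase, was at -0.50 ± 0.167 (-0.20 and -0.81) and Gstm2, a glutathione transferase, at 0.34 ± 0.174 (0.49 and 0.18). Splicing and RNA processing factors showed the widest such parts, 0.33 in ND minus NN and -0.26 in DD minus DN over 28 genes, with a median average of 0.03; Rbm3, a cold-inducible RNA-binding protein (0.36 ± 0.144), Safb2, a scaffold attachment factor (0.29 ± 0.118), and Hnrnpa2b1 (0.52 ± 0.294) had the same sign in both.

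Bile acid synthesis and transport genes had medians of 0.17 and -0.36 in the 2 comparisons (21 genes), proteasome genes 0.10 and -0.33 (26 genes), hepatocyte and nuclear receptor regulators 0.05 and -0.28 (20 genes), and immediate early genes -0.20 and 0.19 (26 genes). Average medians of those 4 lists were between -0.08 and -0.0015. The lists for DNA methylation (0.04), erythroid cells (0.07), lymphocytes and neutrophils (-0.01), endothelium (-0.07), cholangiocytes (0.0044), heat shock (-0.02) and tissues other than liver (0.05) also lay within 0.1 of 0. Over the 35 lists 0 member genes passed the adjusted test for the average effect.

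**Figure D4:**
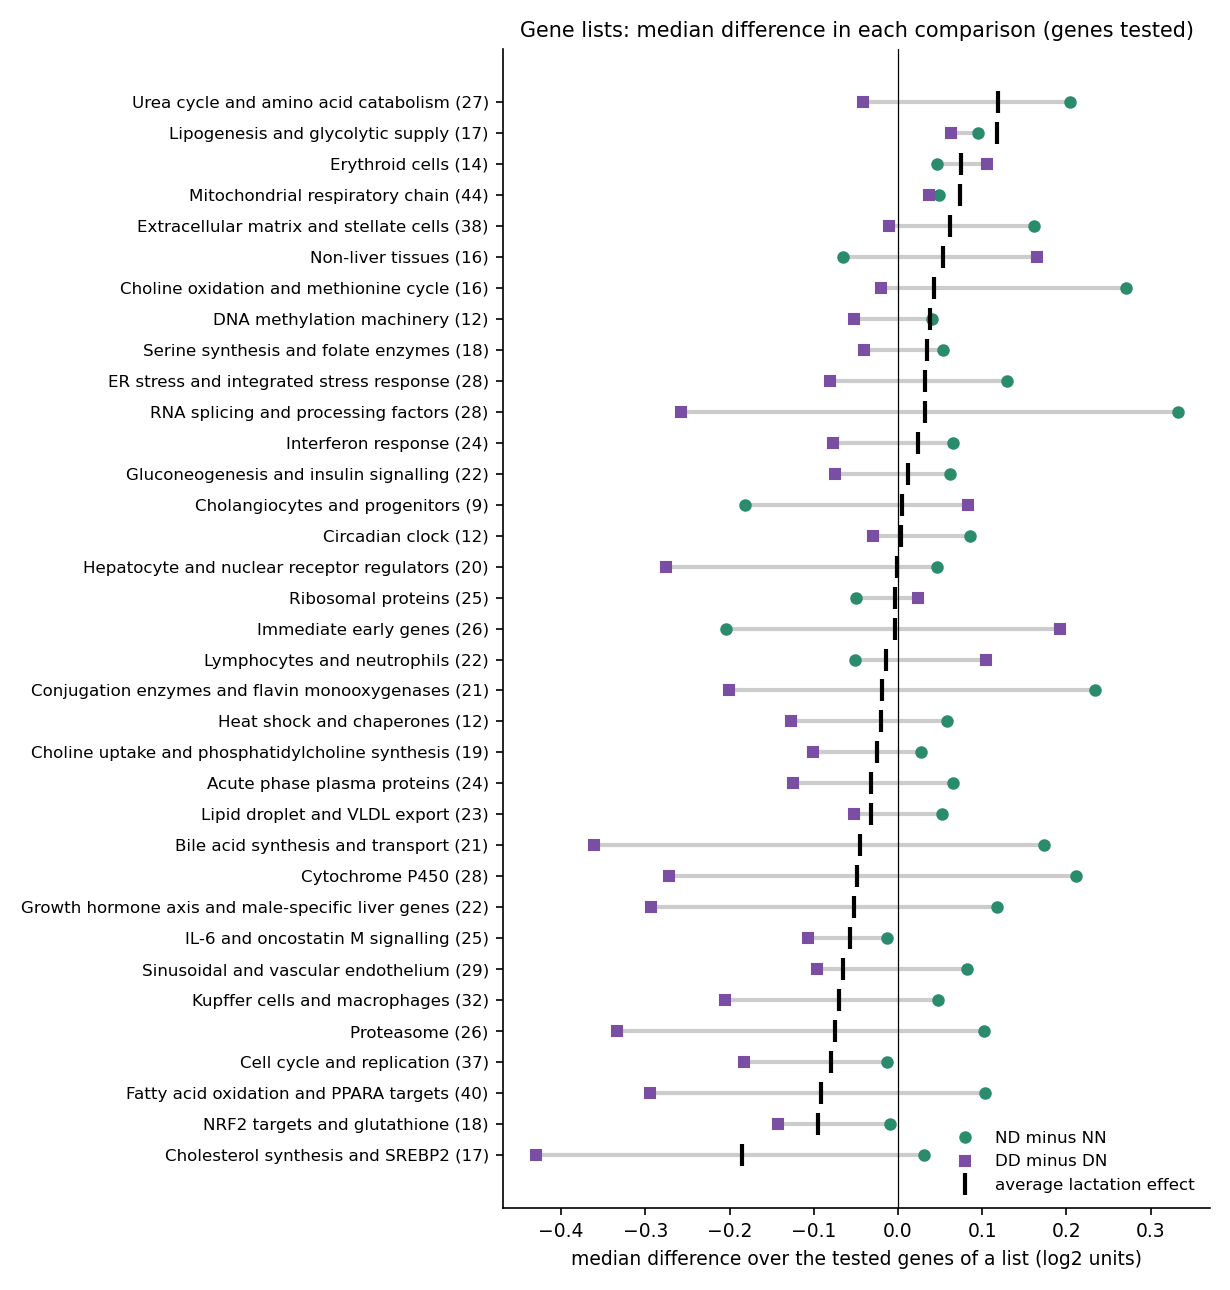
Median difference (log2 units, horizontal axis) of each of 35 gene lists, with the number of genes tested in brackets, for ND minus NN (green circles), DD minus DN (purple squares) and the average lactation effect (black bars). Most lists have the circle and the square on opposite sides of 0; lipogenesis (0.10 and 0.06) and the respiratory chain (0.05 and 0.04) are among those with both above 0, and cholesterol synthesis has the lowest average (-0.18).

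Whether the lactation difference depended on the pregnancy diet was tested gene by gene as (DD minus DN) minus (ND minus NN). No gene was called (0% called, limma, smallest adjusted p = 0.114), and 2580 (20%) reached an unadjusted p under 0.05, 1049 positive (8.12%) and 1531 negative (11.9%), against 3.15% for the average effect. The count depended on 1 array: without NN 2 the test called 639 genes, 156 positive and 483 negative, while leaving out any one of the others gave 0. With array spread as a covariate, 580 of 12912 genes were at unadjusted p under 0.05, against 2580 without it. Separately, ND minus NN had 0 genes called and 598 (4.63%) at unadjusted p under 0.05. DD minus DN had 1 called (0.00774%), Tfec (limma adjusted p = 0.0436), and 2385 (18.5%) at unadjusted p under 0.05. With the covariate, 368 of 12912 genes for ND minus NN and 725 for DD minus DN were at unadjusted p under 0.05. The Tfec call was lost under 16 of 27 alternatives, among them leaving out NN 1, NN 3, ND 1, ND 3, any DD array or any DN array other than DN 2.

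The 6 genes of smallest interaction p each had an average effect near 0 because both parts were of similar size and opposite sign. Plgrkt, a plasminogen receptor, had a signal of 3.13, 3.22, 3.38 and 3.19 in ND livers, above all NN livers at 2.96, 2.94, 2.96 and 2.85. In DD livers it was 2.40, 2.73, 2.44 and 2.72, below all DN livers at 2.98, 3.18, 3.09, 3.05 and 3.13. The same complete separation in both directions was found for Cpq, a carboxypeptidase (0.44 and -0.68), and, with the signs the other way, for Chpf, a chondroitin synthase subunit (-0.48 and 0.56). Phaf1, a phagophore assembly factor (0.49 and -0.75), Ccar1, a cell cycle and apoptosis regulator (0.70 and -0.89), and Trpm7, a channel kinase for magnesium (0.85 and -0.97), separated DD from DN livers and overlapped between ND and NN. Each of the 6 had a limma adjusted p of 0.114. Separation in opposite directions is favoured by choosing genes of smallest interaction p.

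Measures of the whole array moved with the same pattern. No measure had an average lactation effect past the test: the array median differed by 0.0116 (exact permutation test within pregnancy diets, 2-sided, p = 0.698), the array spread, taken as the SD over all probe sets, by -0.0155 (exact permutation p = 0.560), and the first principal component, which held 29.9% of variance, by -7.95 (exact permutation p = 0.431). Their interactions passed: 0.121 for the median, -0.116 for the spread and -49.1 for the principal component, with exact permutation p of 0.0305, 0.0206 and 0.00986, and 0.0305, 0.0305 and 0.0296 after adjustment over the 3 measures. That of the median rose above 0.05 (0.0517 to 0.0661) when any 1 of 7 arrays was left out, namely NN 1, NN 3, NN 4, ND 1, ND 4, DN 4 or DD 3, whereas the p of the other measures stayed at most 0.0469 with 1 array left out. The spread averaged 1.74 ± 0.0411 (SD, 4 arrays) in ND and 1.70 ± 0.0573 (SD, 4 arrays) in NN livers, and 1.67 ± 0.0520 (SD, 4 arrays) in DD and 1.75 ± 0.0293 (SD, 5 arrays) in DN livers. On the principal component NN 2 was at 19.4, while the other 3 NN livers were between -23.5 and -9.86. With array spread as a covariate, 41.7% of genes had the same sign. Array spread itself differed with the 2 diets (interaction -0.116), so the covariate fit cannot separate it from them. The part of array spread in the genes with opposite signs was not tested.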

How the data were processed

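Biotin-labelled liver RNA of 17 male rats was measured on Affymetrix arrays, each array with RNA of a single pup, per the labels. As deposited, values are log2 summaries of probe sets; per the submitters' processing notes the authors used RMA and affy (their versions are not given in the sources used here). Base 2 was assumed. RMA normalises arrays against each other, so values are relative. No label gives a batch. Of 36685 probe sets 14824 had 1 gene symbol in the platform annotation, 829 several and 21032 none; 14670 matched RefSeq (GRCr8) by Entrez number and 0 symbols changed. The probe set of highest mean was kept for the 234 genes with several, leaving 14557 genes, of which 12912 lay above 1.73, the 25th percentile of the table, on 4 or more arrays.

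Means of the 4 groups were fitted with limma 3.58.1 (R 4.3.3) to all arrays, with 13 residual degrees of freedom. Calls required an adjusted p under 0.05 (Benjamini-Hochberg, over all genes tested in a comparison). The ± gives the SE of a difference and the SD of a group mean. Whole-array measures were compared by exact permutation. The test was checked on data simulated with noise independent between genes, unlike these arrays, whose first principal component held 29.9% of variance. Of genes changed 1.5, 2 and 4-fold it recovered 62.7%, 92.5% and 98.5%, with 7 false calls. How it behaves with correlated genes was not tested.

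The comparison, the named genes and the 35 gene lists were chosen with earlier results of these data known. Named were the 12 same-sign genes of smallest p in each direction, preset choline genes with Tfec and Bcl6, list members of smallest p, the 6 genes of smallest interaction p and genes whose groups did not overlap. Of 1160 list entries 832 were measured. Promoters were read from a RefSeq table and searched on both strands. Alternatives were other filters, probe set rules, variance models, array weights, normalisations, models, a looser threshold, a replicate block and leaving out arrays. Whether the replicate numbers pair the arrays was not settled by the values, and the main fit took the arrays as unpaired. Of 24 same-numbered pairs 11 had a correlation of deviations over 0.1 (range -0.367 to 0.421). Of 16 arrays with a partner 7 correlated best with their own number. Figures were drawn with matplotlib 3.10.9.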

Additional observations from a re-analysis of the deposited data

Results flagged for a closer look

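Of 384 groups of livers examined (96 measures in 4 groups), 22 held a liver far from the others of its group by Dixon's criterion, 5.73%, where chance gives about 1 in 20. DD 3 was far from the other DD livers for Zfp494l1 (3.95, others 3.05 to 3.09), Il6r (6.24, others 6.91 to 7.03), Ubqln2 (2.54, others 2.86 to 2.90) and Eci1 (5.81, others 6.85 to 6.98). ND 1 stood high for Pcyt1a (4.78), Onecut1 (6.20, others 4.56 to 4.60), Col6a1 (6.24) and Slc7a5 (4.74). ND 2 stood high for Zfp330 (4.31), Gphb5 (2.69) and Mt2A (6.87, others 4.27 to 4.57) and low for Ccna2 (3.55). NN 2 stood high for Mt2A (8.09, others 5.00 to 5.51) and Ccna2 (4.30, others 3.74 to 3.81). NN 4 stood high for Nckipsd (3.55) and low for Gnmt (6.45, others 7.53 to 7.75), and NN 1 stood low for Hnrnpa2b1 (6.32). DD 2 stood high for Etnk1 (4.38). DN 5 stood high for the cholesterol synthesis genes Sqle (7.18, others 6.09 to 6.21) and Idi1 (7.32, others 5.73 to 6.16), DN 4 high for Aurkb (4.38, others 3.33 to 3.56) and DN 3 low for Acaa1a (6.04, others 6.77 to 6.98).

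The lactation difference depended on the pregnancy diet in 3 measures of the whole array, by exact permutation tests of the interaction: the array median (0.121), the array spread (-0.116) and the first principal component (-49.1). That of the array median did not pass when any 1 of 7 arrays was left out (exact permutation p of 0.0517 to 0.0661).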

How the results depend on the processing

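Besides leaving out each of 17 arrays, 14 settings were tried. The average lactation effect had 0 genes called under all but 1 of them and with any array left out (0 to 0). The exception was the replicate number as a block, with 1 call, Mt2A (-2.23, limma adjusted p = 0.00865); the block also gave 3 calls for DD minus DN and changed no other count of calls, and 7 of 16 arrays with a partner correlated best with their own number. Genes at unadjusted p under 0.05 numbered 1065 with all 29730 probe sets, 650 with array weights, 685 with the block, and 288 to 655 with 1 array left out (655 without ND 4, 644 without DD 2). The share of same-sign genes was 27.7% to 39.8% with 1 array left out, and 41.7% when array spread was a covariate. The interaction gave 0 to 639 calls with 1 array left out, and DD minus DN 0 to 1; DD minus DN gave 0 with no filter, all probe sets, centring, array spread as a covariate, and without DD 3 and DN 3 together. The average effect on the array median was -0.00291 to 0.0237 with 1 array left out, and its interaction 0.0917 to 0.149, or 0.0990 without DD 3 and DN 3 (exact permutation p = 0.0559). Of 2681 values for 93 gene results, 18 changed sign, in 3 genes with averages near 0: Chdh (-0.0504 with the block, -0.0595 to 0.117 with 1 array left out), Pemt (-0.00781 with centring, -0.0408 with the block, -0.0705 to 0.0638) and Mat1a (-0.0841 to 0.0115). For the 24 leading genes 0 of 694 values changed sign, which their choice by smallest p in these same arrays favours. Of 1015 list values 0 moved by over 1 SD, taken as the SD of a list's median among arrays of a group. Leaving out 1 array shifts a group mean by only a part of that array's deviation. The 1 SD limit could therefore hardly be passed with 1 array left out, and the count says little about stability there. Some list medians still changed sign with 1 array left out, as for circadian clock (-0.134 to 0.134) and cytochrome P450 genes (-0.124 to 0.0224). Others kept theirs, as for cholesterol synthesis (-0.295 to -0.117). Same-sign shares and interactions could not be given by the models without an interaction term or without pregnancy diet. The causes were not tested. Signal over background was not analysed here, and the number of arrays limits the precision.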
